A study of Mus musculus with 18 samples.

Results

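What confinement at a height of 3 µm changed in dendritic cells (DCs) labelled as knockout for cPLA_2_ was described from the 3 confined and 3 nonconfined cPLA_2_ KO libraries, which are 6 of the 18 bulk RNA-seq libraries of the series. They were chosen by their labels, and no measured value entered the choice. The cells were bone marrow-derived DCs of mice, grown for 10 days with GM-CSF. In this line *Pla2g4a* is floxed and Cre is driven by *Itgax*, which encodes CD11c, on a C57BL/6 background, so the deletion is limited to cells that have switched on this promoter. The nonconfined cPLA_2_ KO cells had no treatment and were collected directly at the end of culture, whereas the confined cPLA_2_ KO cells were collected 4 h after confinement. Time, handling and the confinement itself can therefore not be told apart. The protocol text mentions LPS for every sample, but titles and treatment entries name it only for the LPS groups. The confined and nonconfined cPLA_2_ WT libraries, 3 of each, were collected at the same times and were used to ask whether a change differed with genotype. Together with the LPS libraries they also entered the variance behind the limma p-values. Transcripts of the Y chromosome were present in cPLA_2_ KO and near 0 in cPLA_2_ WT libraries, so genotype and donor cannot be told apart. *Xist*, a transcript of female cells, was present in both, at 12153 to 24835 normalized counts in cPLA_2_ KO and 22734 to 33681 in cPLA_2_ WT libraries. Reads on genes came to 45021696, 37116045 and 36034820 in the nonconfined and to 33672070, 33027230 and 39400286 in the confined cPLA_2_ KO libraries, so counting error was small for all but rare transcripts. Of 62197 genes in the table, 17875 reached 10 normalized counts in 3 or more libraries, which need not be cPLA_2_ KO ones, and were tested. Normalized counts are reads divided by a size factor for each library, without scaling for gene length, so they compare 1 gene between libraries and not different genes with each other. The most abundant gene of a list is the one with the most normalized counts, which also grow with transcript length.

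cPLA_2_, the product of *Pla2g4a*, is a cytosolic phospholipase that binds to membranes and releases arachidonic acid, the precursor of prostaglandins and leukotrienes. At the nuclear envelope it binds when the membrane is stretched, and it has been placed in a pathway by which cells read the deformation of their nucleus. Immature DCs take up antigen in tissues, and on maturation they raise chemokine receptors, cytoskeletal regulators and co-stimulatory molecules and move to lymph nodes. Cultures of bone marrow with GM-CSF hold DCs together with macrophage-like cells and some granulocytes.

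The mRNA of the targeted gene was present in all libraries labelled cPLA_2_ KO. *Pla2g4a* (identifier GSMG0002495, chromosome 1, 149705372 to 149837041 of mm39) stood at 548, 542 and 533 normalized counts in nonconfined and 923, 871 and 919.5 in confined libraries. Confined libraries were all above nonconfined ones, and the transcript rose with confinement in cells labelled as its knockout (log2 fold change 0.74 ± 0.06 standard error, limma adjusted p = 1.57e-09). Libraries labelled cPLA_2_ WT had 697, 686 and 770.4 normalized counts in nonconfined and 1369, 1430.3 and 1321 in confined cells, above the cPLA_2_ KO libraries of the same treatment in each case. The rise in cPLA_2_ WT cells was 0.94, and the interaction, the change in cPLA_2_ KO minus that in cPLA_2_ WT DCs, was -0.20 (adjusted p = 0.0952 from limma). Counts over the whole gene do not show whether the floxed part was transcribed, so they do not check the deletion. DC markers were present throughout. Here and for all counts that follow, a gene was called at an adjusted p under 0.05 with an absolute log2 fold change above 1, on the scale of log2(normalized count + 1), which understates the change of genes with few counts, and of all genes tested 6.43% were called higher and 5.53% lower. *Cd74*, the invariant chain of MHC class II and the most abundant of them, had 284485, 266470.0 and 271538 normalized counts in nonconfined and 204144, 189379 and 201148 in confined libraries. Each confined library was below each nonconfined one, and *Cd74* was not called. All 17 DC markers were tested, and the sum of their counts was 714362, 687934 and 708253 normalized counts in the nonconfined and 556209, 531629 and 550144 in the confined libraries. None of the 17 was called higher and 6 were called lower, with a median log2 fold change of -0.58. Among the lower ones were *Kmo*, an enzyme of tryptophan breakdown (-1.87), *Cd209a*, a C-type lectin (-2.40), *Dpp4*, a peptidase of the cell surface (-1.90), and *Batf3*, a transcription factor of cross-presenting DCs (-1.63). In bulk RNA, fewer cells of a type and less RNA per cell cannot be told apart.

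Transcripts of other cells were present as well and moved with confinement. Per the study's methods the cells were recovered as the loosely attached fraction of the culture, a step meant to leave behind granulocytes, which float, and macrophages, which hold on to the plate. Of the cell type lists, the eosinophil markers had the lowest median. All 10 were tested, 7 were called lower and none higher, with a median of -1.82, and their sum was 85847, 79907 and 81822 normalized counts in the nonconfined and 25924, 25498 and 26455 in the confined libraries. *Prg2*, the major basic protein of eosinophil granules and the most abundant of them, had 41243, 38113 and 39926 normalized counts in nonconfined and 10416, 10374 and 10709 in confined libraries. The groups were far apart and each was tight (log2 fold change -1.92 ± 0.14 standard error, limma adjusted p = 3.95e-10). *Epx*, eosinophil peroxidase, dropped further, with 17776, 17644 and 17517 normalized counts in nonconfined and 2949, 2621 and 2978 in confined libraries. Of 14 markers of mast cells and basophils 11 were tested, and 6 were called lower and none higher, with a median of -1.07. *Tpsab1*, *Mcpt4* and *Mrgprb2* were at 0. The mast cell proteases *Tpsb2* and *Cma1* of the same list reached 10 normalized counts in at least 1 cPLA_2_ KO library, so the zeros do not show that mast cells were absent. The sum was 16106, 15651 and 15696 normalized counts in the nonconfined and 9243, 8943 and 9268 in the confined libraries. *Cpa3*, a carboxypeptidase of their granules and the most abundant, had 4957, 4731 and 4847 normalized counts in nonconfined and 1919.6, 1839 and 1911 in confined libraries, and *Mcpt8*, a basophil protease, changed by -1.08. Macrophage markers went both ways. Of 13 tested out of 15, *Cd14* was called higher, and *Fcgr1* and *C1qa* were among those called lower, with a median of -0.21 and a sum of 359901, 335999 and 344773 normalized counts in the nonconfined and 407315, 415247 and 419813 in the confined libraries. *Lyz2*, lysozyme, was the most abundant with 282957, 254765 and 265921 normalized counts in nonconfined and 311513, 326989 and 326180.0 in confined libraries, and *Vsig4* was at 0. Of 18 neutrophil markers, all tested, *Mpo*, the peroxidase of early granules, was called lower (-1.34) and none higher, with a median of -0.44 and a sum of 429169, 388843 and 415368 normalized counts in the nonconfined and 388556, 396265 and 383021 in the confined libraries. *S100a9*, their most abundant gene, had 161294, 142045 and 154880.0 normalized counts in nonconfined and 157070.0, 169481 and 154389 in confined libraries, and these ranges overlap.

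Lymphocyte markers were rare, with 9 tested of 14, 3 called lower and none higher, a median of -0.57 and a sum of 390, 374 and 377 normalized counts in the nonconfined and 245, 191 and 217 in the confined libraries, of which *Cd3d*, a chain of the T cell receptor complex, was the most abundant. The median of the list was -0.86 without nonconfined replicate 1 and -0.32 without confined replicate 3. *Cd3d* had a change of -0.94 and passed the fold threshold, with -1.13, without confined replicate 3. Of 8 markers of plasmacytoid DCs 7 were tested, 2 were called lower and none higher, with a median of -0.61 and a sum of 11979, 10370 and 11916 normalized counts in the nonconfined and 7497, 7770 and 7330 in the confined libraries, most of it from the interferon-stimulated gene *Bst2*. Erythroid cells were represented by 2 tested markers of 8, neither of them called, with *Hba-a2*, *Alas2* and *Car1* at 0, a median of -0.88 and a sum of 169, 138 and 146 normalized counts in the nonconfined and 110, 109 and 128 in the confined libraries. Of these *Hbb-bt*, counted together with *Hbb-b2*, was the most abundant. Of 10 stromal markers 8 were tested, 1 was called higher and none lower, with a median of -0.32 (-0.18 without confined replicate 3) and a sum of 2108, 2203 and 2083 normalized counts in the nonconfined and 2115, 2163 and 2186 in the confined libraries, and the most abundant was *Pecam1*, which was level at 1730.0, 1833 and 1788 normalized counts in nonconfined and 1779, 1806 and 1818 in confined libraries. What part these other cells have in the changes below was not tested. Libraries also differed within the confined group. Rows above 0 numbered 21572, 23620 and 23256 in the confined and 22519, 22152 and 22045 in the nonconfined libraries. The share of normalized counts from the mitochondrial genome was 3.26%, 3.34% and 3.23% in nonconfined and 2.79%, 2.30% and 2.54% in confined libraries.

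A large set of genes still differed between confined and nonconfined cells labelled cPLA_2_ KO. In cPLA_2_ KO DCs 1150 of 17875 genes (6.43%) were called higher and 989 (5.53%) lower in confined cells, 2139 (12%) in all. With the adjusted p alone, 4081 genes (22.8%) were higher and 4190 (23.4%) lower, together 8271 (46.3%). The libraries of the groups did not overlap for 9720 genes (54.4%), and these held 1053 of the genes called higher and 968 of those called lower. The median change of all genes tested was 0.01. For 28 combinations of a gene list, those of cell types included, and a direction, limma called no gene, and edgeR and DESeq2 called none there either. A change of more than 4-fold was found for 409 of the genes called higher and 286 of those called lower. Genes called higher made up 2.46% of all normalized counts in nonconfined and 6.72% in confined cells, and those called lower 2.84% and 1.08%. The labels do not say that the 3 libraries of a group came from separate cultures or animals. The p-values measure the spread between libraries within conditions, estimated over all 18 libraries. With the compared conditions alone, limma called 1101 genes higher and 1019 lower.

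In cPLA_2_ WT DCs 2038 genes (11.4%) were called higher and 1362 (7.62%) lower on confinement, 3400 (19%) in all, and 10113 (56.6%) passed the adjusted p alone. The cPLA_2_ KO and cPLA_2_ WT comparisons share no library. Called higher in both were 684 genes, which are 59.5% of those called in cPLA_2_ KO and 33.6% of those called in cPLA_2_ WT DCs. Called lower in both were 567 genes, 57.3% and 41.6% of the respective lists. Of the genes called lower in cPLA_2_ KO DCs, 86 were called higher in cPLA_2_ WT DCs, and of those called higher 1 was called lower. The test of a difference between genotypes is the interaction, which was called for 198 genes (1.11%) with a higher and 1173 (6.56%) with a lower change in cPLA_2_ KO DCs, 1371 (7.67%) in all, and passed the adjusted p alone for 4619 (25.8%). With library totals made equal, the median over all genes moved from -0.01 to -0.23 in cPLA_2_ WT DCs and from 0.05 to 0.24 for the interaction, and the balance of directions shifted with it, to 1618 higher and 2143 lower genes in cPLA_2_ WT DCs and to 508 higher and 1006 lower interactions. Among the 1150 genes that rose in cPLA_2_ KO DCs, the change was lower than in cPLA_2_ WT DCs for 157 and higher for 43 by this call. For the 989 genes that fell, it was lower for 239 and higher for 16. The interaction had an adjusted p of 0.05 or more for 840 of the genes that rose and 632 of those that fell, which does not show that the genotypes responded alike.

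**Figure D1:**
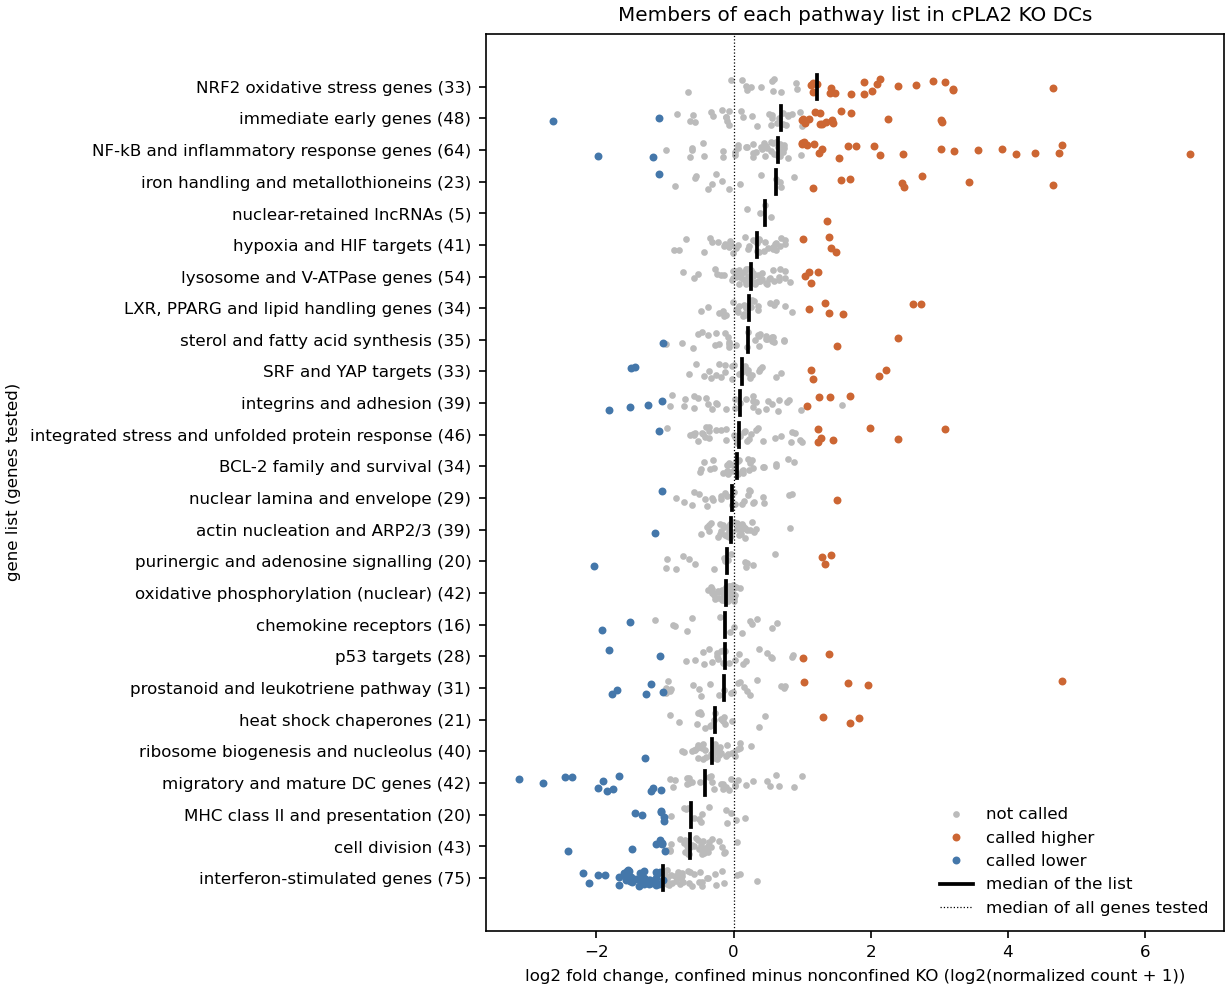
Log2 fold change with confinement in cPLA_2_ KO DCs (x axis, confined minus nonconfined on the log2(normalized count + 1) scale) for the tested members of each pathway list with 5 or more genes tested (y axis, number tested in brackets). Each point is a gene, orange if called higher, blue if called lower and grey if not called, the black bar is the median of the list and the dotted line that of all genes tested; of the lists drawn, NRF2 genes have the highest median, 1.21, and interferon-stimulated genes the lowest, -1.03.

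The oxidative stress response stood at the top. NRF2 is a transcription factor that is freed from its inhibitor KEAP1 by electrophiles and oxidants and induces enzymes that make glutathione, reduce thiols, break down heme and store iron. Of 33 NRF2 targets tested, 20 were called higher and none lower, with a median of 1.21 against 0.01 for all genes and 6.43% of all genes called higher. By the adjusted p alone 31 of the 33 were higher and 1 lower. *Hmox1*, heme oxygenase 1 (identifier GSMG0053561, chromosome 8, 75820245 to 75827220 of mm39), had 4104, 3808 and 3929.5 normalized counts in nonconfined and 103018, 95058 and 100385 in confined libraries. Every confined library exceeded every nonconfined one by a wide margin (log2 fold change 4.66 ± 0.12 standard error, limma adjusted p = 3.3e-17). *Gclm*, the modifier subunit of the enzyme that starts glutathione synthesis (chromosome 3, 122039206 to 122060864), had 1907, 1854 and 1832 normalized counts in nonconfined and 17571, 17104 and 17080.5 in confined libraries. *Srxn1*, sulfiredoxin, which repairs overoxidized peroxiredoxins (chromosome 2, 151947444 to 151953295), had 3415, 3509 and 3377 normalized counts in nonconfined and 26472, 25309.5 and 25866 in confined libraries. The spread within groups was small beside these shifts (log2 fold change 3.21 ± 0.13 standard error, limma adjusted p = 3.17e-14 for *Gclm* and log2 fold change 2.91 ± 0.09 standard error, limma adjusted p = 2.24e-16 for *Srxn1*). *Slc7a11*, the transporter that imports cystine for glutathione, had 5777, 6441 and 5745 normalized counts in nonconfined and 49123, 52342 and 50816 in confined libraries, and *Prdx1*, a peroxiredoxin that breaks down peroxides, had 20796, 18275 and 20004 normalized counts in nonconfined and 82352, 83782 and 84435 in confined libraries. Both rose, by 3.08 and 2.09. In cPLA_2_ WT DCs 17 of the 33 were called higher and none lower, with a median of 1.09. The interaction was called for none of the 33 genes by limma, edgeR or DESeq2. In limma its unadjusted p was under 0.05 for 12 and its adjusted p for 9, of which 4 had a higher and 5 a lower change in cPLA_2_ KO DCs. *Slc7a11* was among the latter (-0.61, adjusted p = 0.0171), whereas *Hmox1* (0.32, 0.188), *Gclm* (0.35, 0.177) and *Srxn1* (-0.12, 0.521) were not past the threshold.

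Of 23 tested genes of iron and metal handling, 8 were called higher and 1 lower, with a median of 0.62. The list shares 3 tested genes with the NRF2 list, of which *Hmox1* and *Fth1* were called higher. Of the other 20, 6 were called higher and 1 lower, with a median of 0.25. *Fth1*, the heavy chain of the iron store ferritin, was the most abundant gene among those called higher, with 353848, 305535 and 339021 normalized counts in nonconfined and 731066, 718928 and 783284 in confined libraries. Its counts more than doubled, and the groups did not overlap (log2 fold change 1.16 ± 0.07 standard error, limma adjusted p = 1.58e-11). *Slc40a1*, ferroportin, the exporter of iron, had 1600.0, 1683 and 1573 normalized counts in nonconfined and 11266, 10580.2 and 10804 in confined libraries. The metallothioneins, small proteins that bind zinc and copper, rose as well, *Mt1* to 24476, 24879.7 and 25989 from 4922, 4053 and 4755 and *Mt2* to 12475, 11674 and 12123 from 1343, 1008 and 1020.0 normalized counts. Their changes were 2.46 and 3.44, and that of *Slc40a1* 2.75. Of the 23, cPLA_2_ WT DCs had 13 called higher and 3 lower, with a median of 1.34, and the interaction was called with a lower change in cPLA_2_ KO DCs for 5 and with a higher one for none. Short of that call, the rise was smaller than in cPLA_2_ WT DCs for *Fth1* (-0.60, adjusted p = 7.88e-05) and *Mt2* (-0.55, adjusted p = 0.0038).

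Among genes with a symbol, a mean of 100 or more normalized counts and groups that do not overlap, the 12 with the largest increase were *Areg*, *Peg10*, *Ppbp*, *Ptgs2*, *Cxcl3*, *Hmox1*, *Cxcl2*, *Sdcbp2*, *Procr*, *Cxcl1*, *Il1b* and *Map1b*. *Areg*, which encodes the EGF receptor ligand amphiregulin, went from near absence to 268, 283 and 213 normalized counts, having stood at 0.784, 3.72 and 0.97. *Peg10*, an imprinted gene derived from a retrotransposon, likewise went from 1.57, 5.59 and 7.76 to 452, 463 and 484. Both were switched on from a few counts, so their fold changes (6.64 and 6.46) depend on the pseudocount. *Ppbp*, the precursor of the neutrophil chemokine CXCL7 (identifier GSMG0040530, chromosome 5, 90916375 to 90917919 of mm39), had 172, 195 and 134 normalized counts in nonconfined and 5555, 5446 and 5892 in confined libraries. Confined libraries were all far above (log2 fold change 5.08 ± 0.26 standard error, limma adjusted p = 1.13e-12), and the interaction was -0.22 (adjusted p = 0.715). *Procr*, the receptor of protein C, had 165, 141 and 157 normalized counts in nonconfined and 2689, 2720.2 and 2784 in confined libraries. *Sdcbp2*, which encodes the adaptor syntenin-2, had 25.9, 16.8 and 33.00 normalized counts in nonconfined and 519, 441 and 491 in confined libraries, and *Map1b*, a protein that binds microtubules, had 18.8, 24.2 and 21.4 normalized counts in nonconfined and 269.8, 287 and 246 in confined libraries. In the same order they rose by 4.14, 4.26 and 3.58.

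Several of these genes lie side by side. On chromosome 5 of mm39, from 90907157 to 91296291, 8 of 10 tested genes were called higher, a stretch that was chosen after its values were seen. They encode CXC chemokines, most of which attract neutrophils, and 2 ligands of the EGF receptor. In order they are *Cxcl5*, *Ppbp*, *Pf4*, *Cxcl3*, *Cxcl1*, *Cxcl2*, *Ereg* and *Areg*. *Cxcl3* had 311, 257 and 277 normalized counts in nonconfined and 7647, 7494 and 7648 in confined libraries. *Cxcl2* had 118, 109.8 and 126 normalized counts in nonconfined and 2407, 2594 and 2507 in confined libraries, and *Cxcl1* was rarer with 11.8, 9.31 and 16.5 normalized counts in nonconfined and 220.1, 239.9 and 223 in confined libraries. All 3 are among the 12 named above, whose groups do not overlap by the way they were chosen. *Pf4*, platelet factor 4, rose less, with 329.9, 344 and 346 normalized counts in nonconfined and 793, 734 and 745 in confined libraries. *Cxcl5* reached 21.6, 5.33 and 28.3 from 1.57, 0 and 0 normalized counts, and *Ereg*, epiregulin, 15.1, 21.3 and 16.4 from 0 in every nonconfined library. By these counts *Cxcl5* did not reach 10 in 3 cPLA_2_ KO libraries, so it was tested through other libraries. The 2 genes not called are *Mthfd2l*, an enzyme of folate metabolism in mitochondria, at 0.46, and one without a symbol, GSMG0040540, at 1.29 (adjusted p = 0.0731 from limma). The rise was smaller than in cPLA_2_ WT DCs for *Cxcl3* (-2.02), *Cxcl1* (-4.68), *Cxcl2* (-2.62), *Ereg* (-3.59) and *Areg* (-2.65), each with an adjusted p under 0.05, whereas the interaction was not past it for *Ppbp*, *Pf4* (-0.18, adjusted p = 0.278) and *Cxcl5* (-1.59, adjusted p = 0.157).

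**Figure D2:**
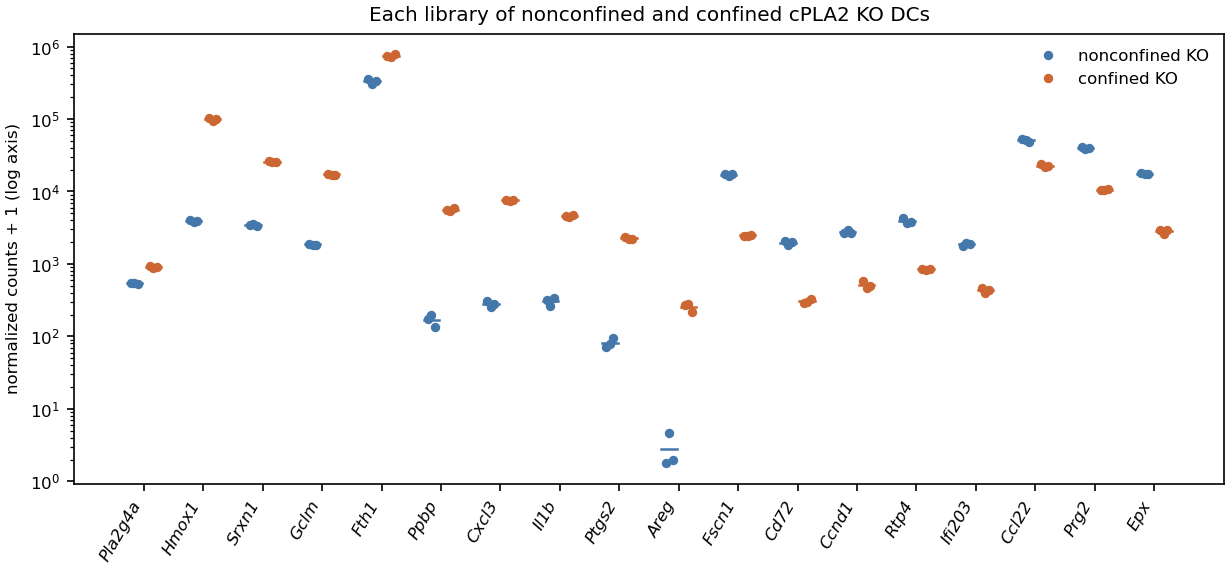
Normalized counts plus 1 (y axis, log scale) of 18 named genes (x axis) in each of the 3 nonconfined (blue) and 3 confined (orange) cPLA_2_ KO libraries, with a bar at the mean of each group. In every gene shown the 3 confined libraries lie apart from the 3 nonconfined ones, above them from Pla2g4a to Areg and below them from Fscn1 to Epx.

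Inflammatory genes rose in part. NF-kB is a family of transcription factors that drives cytokines, chemokines and survival genes after danger signals. Of 64 such genes tested 22 were called higher and 2 lower, and by the adjusted p alone 48 were higher and 10 lower. Their median was 0.64. *Il1b*, the precursor of the cytokine IL-1β (chromosome 2, 129206497 to 129213062), had 315, 259.7 and 337 normalized counts in nonconfined and 4571, 4393 and 4739 in confined libraries. The groups were more than 10-fold apart (log2 fold change 3.91 ± 0.07 standard error, limma adjusted p = 6.94e-20). Outside this list, *Cd14*, a co-receptor for LPS counted above with the macrophage markers, had 1989, 1857 and 2102 normalized counts in nonconfined and 16689, 16089.9 and 16508 in confined libraries, and *Il1rn*, the natural antagonist of the IL-1 receptor and one of the most abundant genes called higher, had 13982, 13397 and 13118 normalized counts in nonconfined and 57399, 55879 and 56065 in confined libraries. Both kept the groups apart and rose by 3.05 and 2.06. The most abundant member of the list, *Ccl22*, a chemokine that attracts T cells through CCR4, went the other way with 52680.4, 50629 and 48696 normalized counts in nonconfined and 23619, 21529 and 22453 in confined libraries. It was called lower at -1.17. In cPLA_2_ WT DCs 59 of the 64 listed genes were called higher and none lower, with a median of 2.76. The interaction was called for 56 genes, each with a lower change in cPLA_2_ KO DCs, and its adjusted p was under 0.05 in that direction for 63, as against 15.6% of all genes. It was -4.54 for *Il1b*, -3.06 for *Cd14* and -1.54 for *Il1rn*.

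The prostanoid and leukotriene pathway, which starts from the product of cPLA_2_, was mixed, with 4 genes called higher and 5 lower of 31 tested and a median of -0.14, which was -0.0038 without nonconfined replicate 1. *Ptgs2*, the inducible cyclooxygenase COX-2 (chromosome 1, 149975782 to 149983985), had 70.5, 77.3 and 95.1 normalized counts in nonconfined and 2387, 2179.6 and 2199.9 in confined libraries. No confined library came near the nonconfined ones (log2 fold change 4.79 ± 0.07 standard error, limma adjusted p = 2.04e-21). Next in the pathway, *Ptges*, the synthase of prostaglandin E2, had 145, 132 and 144 normalized counts in nonconfined and 472, 432 and 440.2 in confined libraries, and *Ptger2*, a receptor of this prostaglandin, had 484, 525 and 467 normalized counts in nonconfined and 1874, 1994 and 1863 in confined libraries. Both rose, by 1.67 and 1.96, and all 3 rose less than in cPLA_2_ WT DCs, with interactions of -3.97, -4.32 and -1.25. *Alox15*, a lipoxygenase that also marks eosinophils, was lower with these and had 2354, 2386 and 2328 normalized counts in nonconfined and 729, 659 and 688 in confined libraries. *Alox5ap*, which presents arachidonic acid to 5-lipoxygenase, was the most abundant gene of the list, and its 29132, 26666 and 27952 normalized counts in nonconfined and 26386, 26846 and 28501 in confined libraries overlap.

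Immediate early genes, which respond to stimuli without new protein synthesis, were called higher more often than lower, 16 and 2 of 48, with 33 higher and 9 lower by the adjusted p alone and a median of 0.69. *Fosb*, a partner in the AP-1 transcription factor, had 132, 113 and 109.7 normalized counts in nonconfined and 1009, 964 and 940.5 in confined libraries, without overlap. *Egr1*, a zinc finger factor of the same class, went the other way, with 4624, 4534 and 4759 normalized counts in nonconfined and 811, 663 and 773 in confined libraries, and was called lower at -2.63. *Fosl1*, another AP-1 partner, and the nuclear receptor *Nr4a2* changed by 2.25 and 1.71. The interaction was called for 19 of the 48, each with a lower change in cPLA_2_ KO DCs, but was -0.09 for *Fosb* (adjusted p = 0.796 from limma). *Btg1*, an antiproliferative factor and the most abundant of them, changed by 0.55 and was not called.

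For lists of other stress programmes, the shares over all genes to compare with were 6.43% called higher and 5.53% called lower, and 22.8% and 23.4% by the adjusted p alone. Of 46 genes of the integrated stress and unfolded protein responses, 7 were called higher and 1 lower, and 17 were higher and 15 lower by the adjusted p, with a median of 0.08. *Chac1*, which degrades glutathione, had 81.5, 119 and 105 normalized counts in nonconfined and 587, 521 and 502 in confined libraries, *Trib3*, a pseudokinase induced by ATF4 and CHOP, changed by 1.99, and *Cebpb*, a transcription factor of myeloid cells, by 1.46. The ER chaperone *Calr*, calreticulin, was the most abundant and had a change of -0.52. Of 21 heat shock chaperones 3 were called higher and none lower, whereas 5 were higher and 13 lower by the adjusted p and the median was -0.27. Called higher were *Hspa1a*, with 177, 168 and 171 normalized counts in nonconfined and 642, 609 and 595 in confined libraries, *Hspa1b* (1.31) and *Dnajb4* (1.70), that is inducible HSP70 proteins and an HSP40 partner. *Hspa1a* and *Hspa1b* are near-identical copies that can share reads. *Hsp90ab1*, the most abundant chaperone, had a change of -0.19. Of 41 targets of HIF, the factor stabilized at low oxygen, 4 were called higher and none lower, and 20 were higher and 4 lower by the adjusted p, with a median of 0.34. The 4 were *Ak4*, an adenylate kinase of mitochondria (1.497), *Egln3*, a prolyl hydroxylase that marks HIF for degradation (1.42), *Vegfa*, the vascular growth factor (1.40), and *Slc16a3*, the exporter of lactate (1.02). *Pkm*, pyruvate kinase, was the most abundant at 0.37. Of 28 p53 targets 2 were called higher, *Plk3*, a stress kinase (1.39), and *Gadd45a*, a growth arrest protein (1.02), and 2 lower, *Trp53i11* (-1.82) and *Phlda3*, an inhibitor of AKT (-1.08), with a median of -0.13 (-0.08 without nonconfined replicate 2), and 8 higher and 10 lower by the adjusted p. *Cdkn1a*, the cell cycle inhibitor p21 and the most abundant, was not called (0.18). None of 34 BCL-2 family and survival genes was called by limma, with 13 higher and 5 lower at an unadjusted p under 0.05 and 11 and 5 at the adjusted p, and the median was 0.05 (0.03 without confined replicate 1). The most abundant was *Mcl1*, with 32220.2, 30164 and 31854 normalized counts in nonconfined and 33315, 31852 and 31353 in confined libraries. *Gadd45a* and *Slc16a3* lie close to the fold threshold. With library totals made equal they changed by 0.98 and 0.98, and *Gadd45a* by 0.98 without nonconfined replicate 2 and 0.97 without confined replicate 3.

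Interferon-stimulated genes fell together. Type I interferons induce antiviral effectors, and resting DCs keep a basal level of these transcripts. Of 75 tested, 38 were called lower and none higher, with a median of -1.03, where 5.53% of all genes were called lower. By the adjusted p alone 71 were lower and 1 higher. *Rtp4*, an interferon-induced chaperone of receptors (chromosome 16, 23428669 to 23432972), had 4240.4, 3654 and 3733 normalized counts in nonconfined and 854, 821 and 853 in confined libraries. The confined values lay far below the nonconfined ones (log2 fold change -2.20 ± 0.07 standard error, limma adjusted p = 2.37e-16). *Ifi203*, of the family that senses DNA, had 1778, 1933 and 1894 normalized counts in nonconfined and 472, 392 and 437 in confined libraries, *Phf11b*, of a family of zinc finger proteins, had 1699, 1542 and 1555 normalized counts in nonconfined and 436, 445 and 422 in confined libraries, and *Oasl2*, of the oligoadenylate synthetase family, had 1506, 1577 and 1577 normalized counts in nonconfined and 385, 387 and 410.1 in confined libraries. The groups were apart for each of them, and their changes were -2.11, -1.88 and -1.98. *Bst2*, tetherin, the most abundant member, had 11588, 9922 and 11433 normalized counts in nonconfined and 7152, 7395 and 6965 in confined libraries, which was short of the fold threshold. In cPLA_2_ WT DCs 40 of the 75 were called higher and none lower, with a median of 1.07. The interaction was called for 65 and past the adjusted p alone for 73, each time with the lower change in cPLA_2_ KO DCs. *Gvin-ps4*, a pseudogene of the interferon-induced very large GTPases that can share reads with its relatives, is among the largest decreases, with 284, 201 and 302 normalized counts in nonconfined and 35.6, 54.4 and 24.6 in confined libraries. In the cPLA_2_ WT comparison it had 232, 239.6 and 289 in nonconfined and 524, 572 and 649 in confined libraries, and the interaction was -3.99.

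Of 42 tested genes in a list on migration and maturation of DCs, 12 were called lower and none higher, with a median of -0.42, and the adjusted p alone gave 27 lower and 8 higher. *Fscn1*, fascin, which bundles actin in dendrites of mature DCs (identifier GSMG0041377, chromosome 5, 142946110 to 142958944 of mm39), had 17172, 16363 and 17384 normalized counts in nonconfined and 2461, 2462 and 2508 in confined libraries. These are tight groups with a wide gap (log2 fold change -2.78 ± 0.04 standard error, limma adjusted p = 8.58e-22). *Tmem176a* and *Tmem176b*, neighbouring genes for membrane channels of immature myeloid cells, had changes of -2.45 and -2.36, and *Slco5a1*, an organic anion transporter, of -3.12. The list holds genes of either stage, so its members do not share a direction of maturation. In cPLA_2_ WT DCs 18 were called higher and 8 lower, and the interaction was called with a lower change in cPLA_2_ KO DCs for 24 and with a higher one for none. For *Fscn1* it was -1.82, with a fall in cPLA_2_ WT DCs too (-0.95). Of 16 chemokine receptors 2 were called lower and none higher, with a median of -0.12 (-0.36 without nonconfined replicate 2 and -0.05 without confined replicate 2). *Ccr3*, the eotaxin receptor, which also marks eosinophils, had 246, 219.7 and 221 normalized counts in nonconfined and 75.5, 42.7 and 65.6 in confined libraries. Its values in cPLA_2_ WT DCs were 82.3, 83.6 and 90.4 normalized counts in nonconfined and 207, 189.5 and 173 in confined libraries, and the interaction was -3.06. Eosinophil markers summed in cPLA_2_ WT DCs to 34906, 34734 and 34727 in nonconfined and 10153, 9676 and 9530.5 in confined libraries in normalized counts, and those of mast cells and basophils to 10799.6, 10841 and 10962 in nonconfined and 17133, 16486 and 17020.1 in confined, beside the cPLA_2_ KO sums given above. The sum of the latter list went against most of its members, of which 6 of 11 were called lower and 1 higher in cPLA_2_ WT DCs, with a median of -1.37. What part these cells have in the difference was not tested. *Ccr1*, the most abundant receptor, had 23768, 22405 and 22098 normalized counts in nonconfined and 24836, 24732 and 24783 in confined libraries. MHC class II genes, which present peptides to CD4 T cells, had 6 of 20 called lower and none higher, and 16 lower by the adjusted p alone, with a median of -0.62. *H2-DMb2*, a chain of the peptide exchange factor H2-DM, had 12521, 11522 and 11951 normalized counts in nonconfined and 4921, 4622 and 4718 in confined libraries. *H2-Eb2*, *H2-Oa* and *H2-Ob* changed by -1.44, -1.05 and -1.06. *H2-DMa*, the partner chain, had 19461, 17649 and 19253 normalized counts in nonconfined and 9129.7, 9033 and 9728 in confined libraries, close to the fold threshold. Without nonconfined replicate 1 or 3 or confined replicate 2 its change was -0.988, -0.996 and -0.994, and without confined replicate 3 that of *H2-Ob* was -0.997, so that these were no longer called.

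The 12 largest decreases by the same rule as the increases were those of *Fyb2*, *Insm1*, *Slco5a1*, *Tcf7*, *Scn4b*, *Pigz*, *Gvin-ps4*, *Fscn1*, *Atp8b5*, *Cd72*, *Slc4a8* and *Rtn4rl1*. *Fyb2*, an adaptor of T cell receptor signalling, had 223, 237 and 222 normalized counts in nonconfined and 6.47, 18.1 and 30.98 in confined libraries. *Insm1*, a zinc finger repressor, had 352, 261 and 262 normalized counts in nonconfined and 41.00, 27.7 and 25.5 in confined libraries. *Tcf7*, the WNT-responsive factor TCF-1, had 1048, 956 and 972 normalized counts in nonconfined and 144, 79.98 and 128 in confined libraries. All 12 genes but *Gvin-ps4* also fell in cPLA_2_ WT DCs with an adjusted p under 0.05 in limma, by changes between -3.92 for *Rtn4rl1* and -0.95 for *Fscn1*. *Cd72*, a lectin with an inhibitory motif, had 2061, 1845 and 2006 normalized counts in nonconfined and 284, 302 and 325 in confined libraries, which made for a larger decrease than in cPLA_2_ WT DCs (interaction -1.50, adjusted p = 6.78e-07 from limma). *Slc4a8*, a bicarbonate exchanger, had 612, 708 and 648 normalized counts in nonconfined and 127, 79.98 and 103 in confined libraries. *Scn4b*, a subunit of sodium channels, *Pigz*, a mannosyltransferase of the GPI anchor, *Atp8b5*, a phospholipid flippase, and *Rtn4rl1*, a relative of the Nogo receptor, fell, with changes between -3.07 and -2.67. Among abundant genes, *Mgl2*, a galactose-binding lectin of DCs and macrophages, had 19738, 19184 and 19806 normalized counts in nonconfined and 9549, 9149 and 9156 in confined libraries, and all confined libraries were at about the same lower level.

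Cell division genes were lower as a group. By the adjusted p alone 40 of 43 were lower and none higher, beside 23.4% and 22.8% of all genes, and 8 were called lower, beside 5.53%, with a median of -0.63. *Ccnd1*, cyclin D1, which drives entry into the cycle (chromosome 7, 144483668 to 144493662), had 2692, 2894 and 2678 normalized counts in nonconfined and 578, 471 and 501 in confined libraries. It fell most among them (log2 fold change -2.42 ± 0.08 standard error, limma adjusted p = 5.1e-16). *Cdc6*, which loads the replicative helicase, *Mcm2* and *Mcm7*, subunits of that helicase, had changes of -1.48, -1.13 and -1.07. *Ccnd3*, cyclin D3, was the most abundant with 19962, 18983 and 19186 normalized counts in nonconfined and 10059, 9406 and 9509 in confined libraries. Its change lies at the threshold and was -0.98 without nonconfined replicate 1, and -0.99 without confined replicate 2 or 3. In cPLA_2_ WT DCs 17 were called lower, with a median of -0.92, and 22 genes had an interaction with an adjusted p under 0.05, 21 of them with a higher change in cPLA_2_ KO DCs, against 10.2% of all genes in that direction. Ribosome biogenesis followed the same way, 30 of 40 lower and 1 higher by the adjusted p, 1 called, which is a smaller share than over all genes, and a median of -0.31. The one called was *Dkc1*, dyskerin, a pseudouridine synthase of the nucleolus, with 1349, 1336 and 1314 normalized counts in nonconfined and 618, 468 and 555 in confined libraries, and the most abundant was *Mybbp1a* (-0.32). Nuclear genes of oxidative phosphorylation showed no call among 42 in limma, with 19 lower at an unadjusted p under 0.05, 16 lower at the adjusted p, none higher by either, and a median of -0.10. *Atp5b*, the catalytic subunit of ATP synthase, had 32715, 30945 and 31884 normalized counts in nonconfined and 32494, 31179.7 and 32791 in confined libraries, which overlap. All 13 tested genes on the mitochondrial chromosome were lower at the adjusted p, and 3 of them were called, GSMG0060119, GSMG0060122 and GSMG0060125. Some of the 13 overlap in position, so they are not independent. GSMG0060119 and GSMG0060122 stayed under 100 normalized counts in each cPLA_2_ KO library. Of 15 mitochondrial transcripts listed by symbol 3 could be matched, and their median was -0.34. *mt-Co1*, a subunit of cytochrome c oxidase, had 586635, 585569 and 580276 normalized counts in nonconfined and 517594, 411484 and 480135 in confined libraries.

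Lysosomal genes were higher by small amounts. Of 54 genes of lysosomes and the proton pump, 37 were higher and 5 lower by the adjusted p alone, beside 22.8% and 23.4% of all genes, while 4 were called higher, a share near the 6.43% of all genes, and none lower, with a median of 0.25. *Lipa*, the acid lipase, had 4977, 5509.9 and 5363 normalized counts in nonconfined and 11651, 10799 and 11594 in confined libraries, and *Atp6v0d2*, a pump subunit, had 3382, 3257 and 3306 normalized counts in nonconfined and 7191, 7183 and 7439.9 in confined libraries. The groups are apart for both. *Mitf*, a regulator of lysosome genes, and *Gla*, a galactosidase, changed by 1.23 and 1.04, and *Gla* by 0.999994, no longer above the threshold, with library totals made equal. *Psap*, prosaposin, was the most abundant at 0.25. In lipid handling 6 of 34 were called higher and none lower, with a median of 0.23. *Plin2*, which coats lipid droplets, had 6698, 6823 and 7093 normalized counts in nonconfined and 17425, 16905 and 17863 in confined libraries, and *Cd36*, a scavenger receptor that takes up fatty acids, had 1906, 1877 and 1765 normalized counts in nonconfined and 5122, 4725 and 4791 in confined libraries. Both were higher in each confined library, by 1.34 and 1.40. *Olr1*, a receptor of oxidized lipoprotein, and *Angptl4*, an inhibitor of lipoprotein lipase, rose by 2.62 and 1.60, whereas *Gpnmb*, the most abundant, had 0.36. Of 35 genes of sterol and fatty acid synthesis, 2 were called higher and 1 lower, with a median of 0.22. The higher ones were *Me1*, malic enzyme, a source of NADPH (2.41), and *Acss2*, which makes acetyl-CoA from acetate (1.51), and the lower one was *Fasn*, fatty acid synthase, with 7236, 7511 and 7690.2 normalized counts in nonconfined and 3473, 3814 and 3655 in confined libraries. *Srebf2*, the regulator of sterol synthesis and the most abundant, had -0.13. The median of this list in cPLA_2_ WT DCs was -0.34, and 27 of the 35 had an interaction past the adjusted p with a higher change in cPLA_2_ KO DCs, beside 10.2% of all genes.

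Of 39 genes of actin nucleation and the ARP2/3 complex, 1 was called lower and none higher, and 10 were higher and 14 lower by the adjusted p alone. The median was -0.04, and -0.03, -0.08 and -0.02 without nonconfined replicate 1 or 2 or confined replicate 2, and *Cfl1*, cofilin, the most abundant, had a change of -0.18. Of 33 targets of SRF and YAP, which respond to actin and tension, 4 were called higher and 2 lower, and 12 were higher and 7 lower by the adjusted p alone, with a median of 0.13. *Mrtfb*, a cofactor of SRF, had 399.6, 671 and 492 normalized counts in nonconfined and 1133, 1068 and 1143 in confined libraries, and *Acta2*, smooth muscle actin, 161, 195 and 163 normalized counts in nonconfined and 401, 365 and 393 in confined libraries. For *Mrtfb*, nonconfined replicate 1 was the lowest of its group, and without it the change of 1.13 became 0.95. The rise of *Mrtfb* was larger than in cPLA_2_ WT DCs (interaction 0.95, adjusted p = 0.000362 from limma). *Actb*, the most abundant, had 228487, 222107 and 221974 normalized counts in nonconfined and 216369, 216862 and 228126 in confined libraries, which overlap. In the nuclear lamina and envelope 1 of 29 was called higher and 1 lower, with a median of -0.02. *Lmna*, the A-type lamin that stiffens the nucleus (chromosome 3, 88387476 to 88410659), had 6996, 6664 and 7231 normalized counts in nonconfined and 20873, 19639.8 and 19199 in confined libraries. The rise is plain in each library (log2 fold change 1.51 ± 0.06 standard error, limma adjusted p = 1.35e-14) and was smaller than in cPLA_2_ WT DCs (-0.54, adjusted p = 3.7e-05). *Trex1*, a DNA exonuclease at the ER and nuclear envelope, had 3428, 3138 and 3167 normalized counts in nonconfined and 1575, 1435 and 1701 in confined libraries. It fell by 1.05, or 0.99 without confined replicate 2, and rose by 1.39 in cPLA_2_ WT DCs (interaction -2.44). Integrins and adhesion molecules were split, 4 called higher and 4 lower of 39, with a median of 0.09. *Thbs1*, thrombospondin 1, had 19158, 24040.2 and 21326 normalized counts in nonconfined and 58428, 54508 and 57449 in confined libraries, and *Spp1*, osteopontin, had 13240.0, 13329 and 13021 normalized counts in nonconfined and 31348, 30472 and 32448 in confined libraries. On the other side *Cdh1*, E-cadherin, had 10659.9, 12619 and 11376 normalized counts in nonconfined and 3486, 3054 and 3308 in confined libraries, and *Itgae*, the CD103 chain of the integrin that binds E-cadherin, changed by -1.25. *Mmp12*, macrophage elastase and the most abundant, had 0.80. Of 20 genes of purinergic signalling 3 were called higher and 1 lower, with a median of -0.10. *Panx1*, a channel that releases ATP (1.42), *Nt5e*, CD73, which makes adenosine (1.33), and the receptor *P2ry2* (1.29) were higher. The entry *Adora3 // Tmigd3*, in which an adenosine receptor and an overlapping gene are counted together, had 4515, 4276 and 4533 normalized counts in nonconfined and 1136, 1024 and 1089.9 in confined libraries, and *P2ry14*, the most abundant, had -0.14.

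Transcripts without a symbol stood out among the increases. Of the 1150 genes called higher 471 (41.0%) had no symbol, against 3889 (21.8%) of those tested and 126 (12.7%) of those called lower. Of the 471, 403 overlap a protein-coding gene of GENCODE, beside 3146 of the 3889 tested without a symbol. The median over the 471 was 6.27, 7.45 and 5.82 normalized counts in the nonconfined and 17.3, 34.1 and 25.5 in the confined libraries. Confined replicates 2 and 3 were thus the highest, and they also had the most rows above 0. With genes that carry a symbol alone, a setting chosen after the data were seen, 679 were called higher and 863 lower, so that the direction with more genes turned. It also turned without confined replicate 2, with 934 higher and 937 lower, and with a filter of 100 normalized counts, with 531 and 556. Among nuclear-retained lncRNAs 5 were tested, and 1 was called higher and none lower, with a median of 0.46. *Kcnq1ot1*, the imprinted antisense transcript of *Kcnq1*, had 105, 87.5 and 93.2 normalized counts in nonconfined and 129, 456 and 253 in confined libraries. Its confined values are spread, replicate 1 lies close to the nonconfined ones, and without confined replicate 2 the change was 0.92 (adjusted p = 0.0983 from limma). *Neat1*, the scaffold of paraspeckles and the most abundant of them, changed by 0.39.

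Side by side with cPLA_2_ WT DCs, genes called in cPLA_2_ KO DCs differed in both directions. *Mmp19*, a matrix metalloproteinase, had 671, 780.1 and 747 normalized counts in nonconfined and 6519.5, 5885 and 6715 in confined libraries, a rise of 3.12 beside 3.15 in cPLA_2_ WT DCs (interaction -0.03, adjusted p = 0.859 from limma). The most negative interactions named here belonged to genes that rose far more in cPLA_2_ WT DCs. Among them *Il10*, *Cxcl11*, *Nos2*, *Ppp1r3g* and *U90926* stayed under 100 normalized counts in each cPLA_2_ KO library. They met the mean of 100 through other libraries, such as the confined cPLA_2_ WT ones, so their larger rise there follows in part from the choice. *Il6*, an inflammatory cytokine, had 133, 104 and 118 normalized counts in nonconfined and 296, 307 and 267 in confined libraries, and *Nos2*, the inducible nitric oxide synthase, 21.9, 11.2 and 22.3 normalized counts in nonconfined and 77.7, 78.9 and 71.99 in confined libraries. In cPLA_2_ WT DCs *Il6* rose by 7.25 and *Nos2* by 9.48. Both genes were picked for a negative interaction, so no conclusion is drawn from the smaller shifts in cPLA_2_ KO DCs. *Il10*, an anti-inflammatory cytokine, reached 18.3, 15.99 and 9.11 and the chemokine gene *Cxcl11* 8.63, 17.1 and 9.11 normalized counts in confined cPLA_2_ KO libraries. At such counts the call of *Cxcl11* was lost without confined replicate 2 (0.96, adjusted p = 0.0641), with a replicate block (adjusted p = 0.0909), with the compared conditions alone (adjusted p = 0.0545) and with a pseudocount of 5 (0.83), all in limma. That pseudocount also ended the calls of *U90926* (0.90) and *Prss57* (-0.998). *Ppp1r3g*, a glycogen-targeting subunit of a phosphatase, reached 23.7, 23.5 and 7.29, and *U90926* 4.32, 2.13 and 7.29 from 0 in all nonconfined cPLA_2_ KO libraries. None of *Il10*, *Cxcl11*, *Ppp1r3g* and *U90926* reached 10 normalized counts in 3 cPLA_2_ KO libraries. They were tested through other libraries, such as the confined cPLA_2_ WT ones, where they are high. The most positive interactions were of another kind. *Mpo*, *Rasl12*, *Prss57* and *Lpar5* fell in both genotypes and less in cPLA_2_ KO DCs, by -1.34, -1.73, -1.03 and -1.25 beside -2.83, -3.02, -2.37 and -2.41. The change of *Prss57*, a protease of neutrophil granules, was -0.83 without confined replicate 1. Of the 18 neutrophil markers, of which *Mpo* is one, 13 had an interaction past the adjusted p with a higher change in cPLA_2_ KO DCs, beside 10.2% of all genes, and 2 with a lower one. Their median of -0.44 in cPLA_2_ KO DCs stands beside -0.97 in cPLA_2_ WT DCs, and in the latter their sum was 279391, 284283 and 282650.0 normalized counts in nonconfined and 208566, 198774 and 197172 in confined libraries. What part this has in the values of *Mpo* and *Prss57* was not tested. *Myrf*, a membrane-bound transcription factor, had 196, 254 and 203 normalized counts in nonconfined and 502, 449 and 468 in confined libraries, and *Tchh*, trichohyalin, 87.8, 80.1 and 103 normalized counts in nonconfined and 231, 226 and 239.7 in confined libraries. These last 2 rose in cPLA_2_ KO DCs, by 1.12 and 1.36, while their values in cPLA_2_ WT DCs were -0.13 and -0.17.

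**Figure D3:**
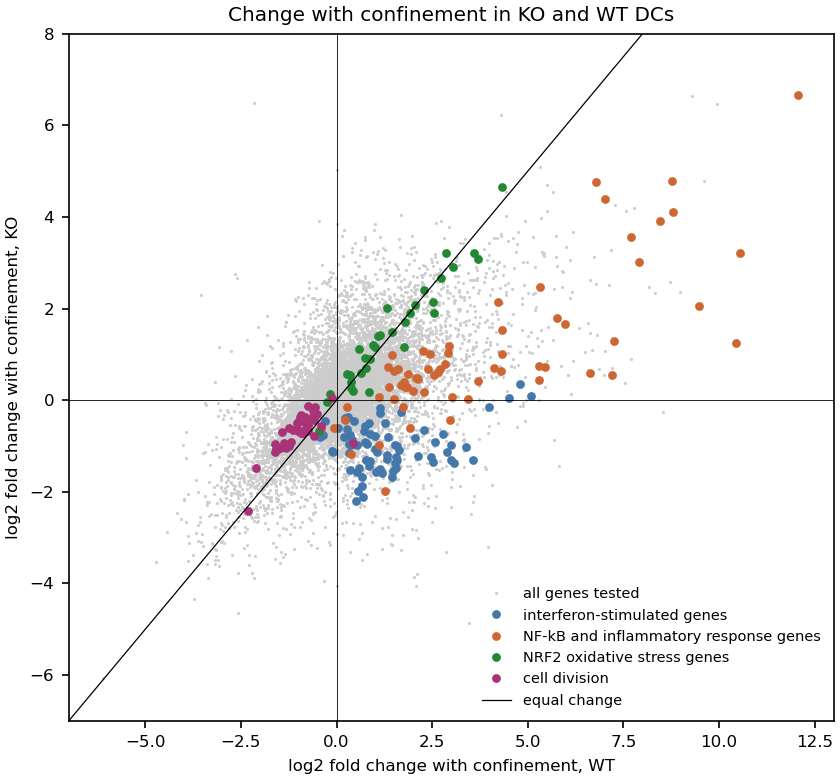
Log2 fold change with confinement in cPLA_2_ KO (y axis) against that in cPLA_2_ WT DCs (x axis), both on the log2(normalized count + 1) scale, for all 17875 genes tested (grey) and 4 gene lists (colours), with the line of equal change. NRF2 genes lie near the line, cell division genes lie in the lower left, NF-kB genes lie to the right of the line, and interferon-stimulated genes lie mostly below 0 in cPLA_2_ KO and above 0 in cPLA_2_ WT DCs.

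Promoters of genes that moved together were searched for short motifs on both strands, as a description. The sequences are 300 bases around the start of each gene from RefSeq on GRCm38.p6, another build than that of the counts, and 10980 tested genes could be matched by symbol, 512 of them called higher and 667 called lower. The core TGACNNNGC of the antioxidant response element, to which NRF2 binds, was found in 16.9% of the promoters of genes tested, 19.9% of those called higher and 15.7% of those called lower, in 13.99% of all 27025 genes with a promoter, and in 9 of 25 NRF2 targets. In 43 of 4071 promoters with this core, a match also contains the AP-1 site TGANTCA. Of the NRF2 targets called higher, 7 of 16 with a promoter held the core. Shown are the promoters of 3 of the oxidative stress and NADPH genes described above. They were picked among those that hold the core, which is in capitals. In the promoter of *Me1* the match overlaps an AP-1 site. That of *Srxn1* also holds the AP-1 site, outside the marked match and not in capitals.
Gclm, chr3:122245307-122245606, plus strand: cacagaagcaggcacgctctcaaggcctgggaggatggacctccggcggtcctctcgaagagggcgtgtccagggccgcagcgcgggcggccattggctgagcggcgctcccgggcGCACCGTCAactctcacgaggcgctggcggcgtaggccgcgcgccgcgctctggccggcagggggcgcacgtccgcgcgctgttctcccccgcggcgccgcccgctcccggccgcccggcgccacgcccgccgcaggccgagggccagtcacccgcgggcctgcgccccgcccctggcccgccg
Srxn1, chr2:152105274-152105573, plus strand: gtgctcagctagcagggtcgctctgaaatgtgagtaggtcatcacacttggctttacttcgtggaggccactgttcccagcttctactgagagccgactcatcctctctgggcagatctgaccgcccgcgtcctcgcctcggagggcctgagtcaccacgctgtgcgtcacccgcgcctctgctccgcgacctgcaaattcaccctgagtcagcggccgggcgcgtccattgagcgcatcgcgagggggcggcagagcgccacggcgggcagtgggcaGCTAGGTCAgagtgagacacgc
Me1, chr9:86695865-86696164, minus strand: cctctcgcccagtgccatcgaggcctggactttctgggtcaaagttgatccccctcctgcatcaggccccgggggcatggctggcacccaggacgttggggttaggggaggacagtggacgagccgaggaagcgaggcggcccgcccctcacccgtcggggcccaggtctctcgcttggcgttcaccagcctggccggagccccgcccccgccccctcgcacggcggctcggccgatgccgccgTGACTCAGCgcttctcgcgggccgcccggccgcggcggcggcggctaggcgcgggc

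The core GAAANNGAA of the interferon-stimulated response element, bound by complexes that contain IRF factors, was found in 8.84% of the promoters of genes tested, 7.03% of those called higher, 15.4% of those called lower and 9.76% of all, and in 36 of 59 interferon-stimulated genes. Of those called lower, 20 of 31 with a promoter held it. Shown are 2 of the interferon-stimulated genes named above, picked among those that hold the core, which is in capitals.
Ifi203, chr1:173942443-173942742, minus strand: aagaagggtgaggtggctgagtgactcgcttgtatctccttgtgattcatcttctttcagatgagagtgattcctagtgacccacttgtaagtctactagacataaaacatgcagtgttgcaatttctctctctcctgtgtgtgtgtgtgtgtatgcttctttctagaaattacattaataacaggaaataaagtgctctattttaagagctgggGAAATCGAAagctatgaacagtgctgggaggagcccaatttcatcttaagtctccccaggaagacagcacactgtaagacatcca
Phf11b, chr14:59341281-59341580, minus strand: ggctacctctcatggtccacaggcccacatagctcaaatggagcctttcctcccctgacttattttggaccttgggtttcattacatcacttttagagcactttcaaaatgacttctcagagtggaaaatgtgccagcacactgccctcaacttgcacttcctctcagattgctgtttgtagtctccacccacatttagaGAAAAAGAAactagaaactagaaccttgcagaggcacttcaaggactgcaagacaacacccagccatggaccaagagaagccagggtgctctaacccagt

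The AP-1 site TGANTCA was found in 6.71% of the promoters of genes tested, 15.8% of those called higher, 8.40% of those called lower and 8.97% of all. Shown are 2 of the 12 genes with the largest increase, picked among those that hold the site, which is in capitals.
Ppbp, chr5:90768268-90768567, plus strand: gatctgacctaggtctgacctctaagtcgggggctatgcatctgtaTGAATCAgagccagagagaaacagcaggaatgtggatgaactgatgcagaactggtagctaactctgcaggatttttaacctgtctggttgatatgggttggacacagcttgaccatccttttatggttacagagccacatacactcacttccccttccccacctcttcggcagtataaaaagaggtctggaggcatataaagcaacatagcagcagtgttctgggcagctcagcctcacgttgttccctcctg
Procr, chr2:155750967-155751266, plus strand: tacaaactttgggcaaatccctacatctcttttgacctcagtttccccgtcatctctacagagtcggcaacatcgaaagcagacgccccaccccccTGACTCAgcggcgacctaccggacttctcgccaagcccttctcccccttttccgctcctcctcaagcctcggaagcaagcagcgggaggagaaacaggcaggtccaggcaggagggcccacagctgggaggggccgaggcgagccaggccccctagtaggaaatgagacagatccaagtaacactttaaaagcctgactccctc
The NF-kB core GGANTTTCC was found in 4.10% of the promoters of genes called higher, 3.45% of those called lower, 1.77% of those tested and 1.45% of all. Other motifs searched are given as shares of genes called higher, called lower and tested. The C/EBP-ATF element was in 2.73%, 4.35% and 2.91%, and the heat shock core in 7.81%, 9.45% and 8.36%. For the hypoxia core they were 27.5%, 18.6% and 28.6%, and for the sterol element 0.98%, 0.75% and 1.35%. For the lysosomal CLEAR element they were 0.78%, 0.30% and 2.09%, and for the cAMP element 2.54%, 1.95% and 3.48%.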

How the data were processed

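The deposited values are a signal per gene, that is normalized counts: the authors, per their Methods and processing notes, mapped strand-specific polyadenylated RNA reads with STAR 2.7.5a to mm39, counted with featureCounts 1.5.0 and divided by DESeq2 size factors in R 3.5.3. Whole reads were recovered within 0.01 reads for 100% of values. From the deposited table, log2(normalized count + 1) was fitted in limma 3.58.1 (R 4.3.3, trend) with a mean for each of 6 conditions over 18 libraries, with Benjamini-Hochberg adjustment of p-values. On the recovered reads, edgeR 4.0.16 (quasi-likelihood) called 1169 genes higher and 993 lower, and DESeq2 1.42.0 called 1275 and 1020. Genes named are *Pla2g4a*, the 12 largest increases and decreases (called, mean of at least 100, no overlap), up to 4 called members with a mean of at least 100 and the largest change and the most abundant member of each of 36 lists, genes at the extremes of the interaction or of like change in cPLA_2_ WT DCs (called, mean of at least 100), and the 5 most abundant called genes in each direction. For genes at the extremes of the interaction, the mean of at least 100 takes in libraries other than cPLA_2_ KO ones. *Cxcl5*, *Pf4*, *Ereg*, *Mthfd2l* and their neighbour without a symbol, markers at 0, *Tpsb2* and *Cma1* were named after their values were seen. Members and lists were chosen with earlier results of these data known. Of 1050 list genes, 24 found no entry. Alternatives were other thresholds, pseudocounts, filters, scalings, tools, the compared conditions alone, a replicate block, each library left out and genes with a symbol. The pipeline was tested on simulated data. Figures were drawn with matplotlib 3.10.9.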

Additional observations from a re-analysis of the deposited data

Results flagged for a closer look

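A difference between genotypes in the response to confinement was singled out where the interaction was past the adjusted p in limma with an absolute size above 1, among the genes named by rule. Each value is the log2 change with confinement in cPLA_2_ KO DCs minus that in cPLA_2_ WT DCs. *Cxcl11*, *Il10*, *Ppp1r3g* and *U90926* did not reach 10 normalized counts in 3 cPLA_2_ KO libraries. They and *Nos2* stayed under 100 in each cPLA_2_ KO library. They were named through other libraries, such as the confined cPLA_2_ WT ones, where they are high, so no conclusion is drawn from their values.

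Among cytokines, chemokines and inflammatory enzymes the interaction was -9.21 for *Cxcl11*, -7.43 for *Nos2*, -7.33 for *Il10*, -5.97 for *Il6*, -4.68 for *Cxcl1*, -4.54 for *Il1b*, -2.62 for *Cxcl2*, -2.02 for *Cxcl3*, -1.56 for *Ccl22* and -1.54 for *Il1rn*. In the prostaglandin pathway it was -4.32 for *Ptges*, -3.97 for *Ptgs2* and -1.25 for *Ptger2*. Among interferon-stimulated genes and their relatives it was -3.99 for *Gvin-ps4*, -2.81 for *Ifi203*, -2.69 for *Rtp4*, -2.54 for *Phf11b*, -2.53 for *Oasl2* and -2.44 for *Trex1*. Surface molecules and receptors had -3.44 for *Procr*, -3.06 for *Ccr3*, -3.06 for *Cd14*, -1.56 for *H2-Eb2*, -1.50 for *Cd72*, -1.24 for *P2ry2*, -1.17 for *Fcgr1* and -1.04 for *Olr1*. Growth factors, matrix and cytoskeletal genes had -2.65 for *Areg*, -1.92 for *Vegfa*, -1.74 for *Thbs1* and -1.82 for *Fscn1*. Regulators of stress and transcription had -2.37 for *Gadd45a*, -1.62 for *Nr4a2*, -1.22 for *Batf3*, -1.18 for *Trib3* and -1.07 for *Fosl1*. For the remaining genes with a lower change in cPLA_2_ KO DCs it was -6.61 for *U90926*, -6.12 for *Ppp1r3g*, -3.48 for *Peg10* and -3.03 for *Sdcbp2*. *U90926* was at 0 in every nonconfined cPLA_2_ KO library, so its fitted value depends on the pseudocount and is no bound. The same holds for *Ereg*, named after its values were seen, with an interaction of -3.59. *Il10* was at 0 in every nonconfined cPLA_2_ WT library, and *Cxcl11* and *Ppp1r3g* were at 0 in 2 of 3, so their values depend on the pseudocount as well. A higher change in cPLA_2_ KO DCs was found with 1.53 for *Tchh*, 1.49 for *Mpo*, 1.34 for *Prss57*, 1.29 for *Rasl12*, 1.26 for *Myrf* and 1.17 for *Lpar5*.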

How the results depend on the processing

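Calling genes from a 1.5-fold change at an unadjusted p of 0.05 gave 2254 higher and 1973 lower genes in cPLA_2_ KO DCs, 3269 and 2898 in cPLA_2_ WT DCs, and 1019 higher and 1937 lower interactions, since both criteria are looser. The adjusted p alone gave 4081 and 4190, 5038 and 5075, and 1823 and 2796. A filter of 100 normalized counts, with 11894 genes tested, gave 531 higher and 556 lower genes in cPLA_2_ KO DCs, 1248 and 751 in cPLA_2_ WT DCs, and 90 higher interactions. Genes with a symbol alone gave 679 higher genes in cPLA_2_ KO DCs and 119 higher interactions, because fewer genes enter. With the same total per library, 1618 genes were higher and 2143 lower in cPLA_2_ WT DCs, against 2038 and 1362, and 508 interactions were higher and 1006 lower, against 198 and 1173. The cause was not tested.

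Equal replicate numbers showed no pairing of libraries, with residual correlations of 0.00540, 0.0283 and -0.0187. With a replicate block, 1118 genes were higher and 989 lower in cPLA_2_ KO DCs, and 314 interactions were higher. Leaving out each library gave 934 to 1279 higher and 895 to 974 lower genes in cPLA_2_ KO DCs. TMM scaling gave 1126 and 1006.

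Of 153 genes named by rule, 113 were called in cPLA_2_ KO DCs under every alternative run and 8 under none, 13 lost the call and 19 gained it under at least 1, and 0 reversed. Among 36 list medians, 2 changed sign under at least 1 alternative, those of chemokine receptors (between -0.36 and 0.01) and of the nuclear lamina (between -0.06 and 0.03). Depth limits genes of few counts most. Of the 6 cPLA_2_ KO libraries, confined replicate 2 had the fewest reads, 33027230, and the most rows above 0, 23620.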
